A study of Rattus norvegicus with 36 samples.

Results

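The 10 genes listed for hepcidin and systemic iron handling were looked for in rat liver, of which 7 could be measured among the 14217 genes named on the array. They were hepcidin itself (Hamp), its iron-dependent ligand Bmp6, the iron sensor Hfe, the BMP-responsive genes Id1 and Smad7, the transferrin receptor Tfrc and the iron exporter ferroportin (Slc40a1). A gene was taken where the platform annotation gave a probe set that symbol and no other, and the probe set with the highest mean over the 36 arrays was used. The other 3 genes on the list, Tf, Fth1 and Ftl1, were matched on this array by probe sets that carry several symbols each, so no value is given for them. The 7 measured genes had 15 probe sets of a single symbol in all.

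The livers came from male Harlan Sprague Dawley rats aged 7 weeks at the start. They were given bis(2-ethylhexyl) tetrabromophthalate (TBPH), a brominated phthalate ester used as a flame retardant, in corn oil by oral gavage at 5 ml/kg for 5 days. Necropsy followed 1 day later, and RNA came from the left lobe. Vehicle rats received corn oil alone, and the 5 TBPH groups received a highest dose of 706 mg/kg or one of 70.6, 7.06, 0.71 and 0.07 mg/kg. Each of the 6 groups had 6 Affymetrix arrays, and all doses were compared with the same vehicle arrays. The labels number the arrays within a group but do not say that each is a separate animal. The p-values therefore describe differences beyond the array-to-array spread, which may be technical. The comparison of vehicle with each dose, which the study's design names, asks which liver transcripts change with the exposure.

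Hepcidin is a peptide hormone made mainly by hepatocytes, which binds ferroportin on macrophages, enterocytes and hepatocytes and causes it to be degraded, so that less iron enters plasma. Its gene is switched on by iron through BMP6, which is made by sinusoidal endothelial cells and acts through hemojuvelin and BMP receptors to phosphorylate SMAD proteins, and by inflammation through IL6 and STAT3. HFE and the transferrin receptors report transferrin saturation to this pathway, and Id1 and Smad7 are induced by the same SMAD signal, with SMAD7 feeding back as an inhibitor. In bulk liver, fewer cells of a type and less RNA per cell cannot be told apart.

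The proximal promoters of the 3 genes whose joint variation is described below are shown because the BMP and STAT3 arms meet on Hamp. Each is the 250 bases before the RefSeq start in build GRCr8, written on the gene's own strand, with matches to the BMP response element core GGCGCC or the STAT pattern TTCNNNGAA in capitals. Hamp lies at chr1:95300272-95300521 on the minus strand, Id1 at chr3:161671314-161671563 on the plus strand and Smad7 at chr18:71263258-71263507 on the plus strand.
Hamp: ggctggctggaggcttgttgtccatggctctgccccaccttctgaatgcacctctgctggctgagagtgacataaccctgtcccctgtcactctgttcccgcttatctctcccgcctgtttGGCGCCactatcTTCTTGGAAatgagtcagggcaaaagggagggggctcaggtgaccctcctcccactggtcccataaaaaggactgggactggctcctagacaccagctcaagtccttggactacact
Id1: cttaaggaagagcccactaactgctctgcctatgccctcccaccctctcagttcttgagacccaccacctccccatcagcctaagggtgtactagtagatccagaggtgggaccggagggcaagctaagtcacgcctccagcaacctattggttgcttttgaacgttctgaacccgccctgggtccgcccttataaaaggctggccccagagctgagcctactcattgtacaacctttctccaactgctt
Smad7: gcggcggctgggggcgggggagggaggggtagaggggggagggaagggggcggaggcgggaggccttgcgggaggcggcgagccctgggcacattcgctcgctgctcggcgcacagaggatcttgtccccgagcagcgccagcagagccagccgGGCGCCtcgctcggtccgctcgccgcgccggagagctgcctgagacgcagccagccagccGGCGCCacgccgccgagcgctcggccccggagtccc
The Hamp window held GGCGCC from 129 to 124 bases before the start and TTCTTGGAA from 117 to 109 bases before it. The Smad7 window held GGCGCC at 96 to 91 and at 36 to 31 bases before the start, and neither pattern was found in these letters of Id1. RefSeq gave a promoter for 7 of the 10 listed genes, of which 3 (Hamp, Smad7 and Tfrc) held the BMP core and 1 (Hamp) the STAT pattern. Of 33469 rat promoters of the same length, 8.69% held GGCGCC on either strand, 7.67% held TTCNNNGAA and 0.379% held both; both patterns read the same on the 2 strands and did not overlap in Hamp. A match describes letters in a window and is not a measured binding site.

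The arrays carried the profile of liver. All 9 hepatocyte genes on the marker list, among them Alb, Ttr and Serpina1, lay at or above the 92.6th percentile of all probe sets. The summed level of 8 Kupffer cell and macrophage genes, as the array mean, ran from 8.35 to 8.81 log2 in vehicle and from 8.11 to 9.07 over the dosed groups. Values correlated between arrays at 0.987 to 0.996 over all probe sets. In the 70.6 mg/kg group replicate 5 and in the 0.07 mg/kg group replicate 4, the 3′ minus 5′ difference of the GAPDH control probes, a sign of RNA quality, was 0.41 and 0.33 log2, against 0.09 on the next highest array. Values without those 2 arrays are given beside several of the results that follow.

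None of the 7 genes passed the test at any dose. limma with Benjamini-Hochberg adjustment over all 31042 probe sets called 0 of the 7 genes, and 0% of all probe sets, at each of the 5 doses, for any difference among the 6 groups and for a slope over dose rank. At an unadjusted p of 0.05 it again counted 0 of the 7 genes in each comparison, while over all probe sets it counted 1080 at 706 mg/kg, 1626 at 70.6 mg/kg, 1079 at 7.06 mg/kg, 1235 at 0.71 mg/kg, 953 at 0.07 mg/kg, 788 for any difference and 1292 for the slope. The 35 differences between a dose and vehicle ran from -0.22 to 0.23 on the log2 scale. On the probe sets used, all 35 of their 95% intervals held 0 and all 35 lay within 1.5-fold either way. The members' count therefore equalled the background of 0%.

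Hamp was expressed at the 99.6th percentile of all probe sets, with a mean of 12.98 log2. The vehicle arrays had a lowest, median and highest Hamp value of 12.54, 12.95 and 13.21 log2. The 0.07 mg/kg arrays gave 12.62, 12.99 and 13.29 log2, and the 0.71 mg/kg arrays 12.98, 13.03 and 13.17 log2. The 7.06 mg/kg arrays gave 12.53, 13.00 and 13.34 log2. The groups overlapped throughout, and the 0.71 mg/kg arrays lay closest together. The 70.6 mg/kg arrays gave 12.82, 13.00 and 13.36 log2 and the 706 mg/kg arrays 12.53, 12.90 and 13.25 log2. The highest group mean, 13.05 log2 ± 0.07 (SD, n = 6) at 0.71 mg/kg, stood 1.12-fold above the lowest, 12.88 ± 0.30 (SD, n = 6) at 706 mg/kg, while single arrays differed by up to 1.78-fold. The difference of 706 mg/kg from vehicle was -0.07 log2 (95% interval -0.33 to 0.19). The separate 95% intervals of the 5 doses reached from 0.796-fold to 1.28-fold. Each covers 1 dose and all share the vehicle arrays, so these ends are not a joint bound.

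**Figure D1:**
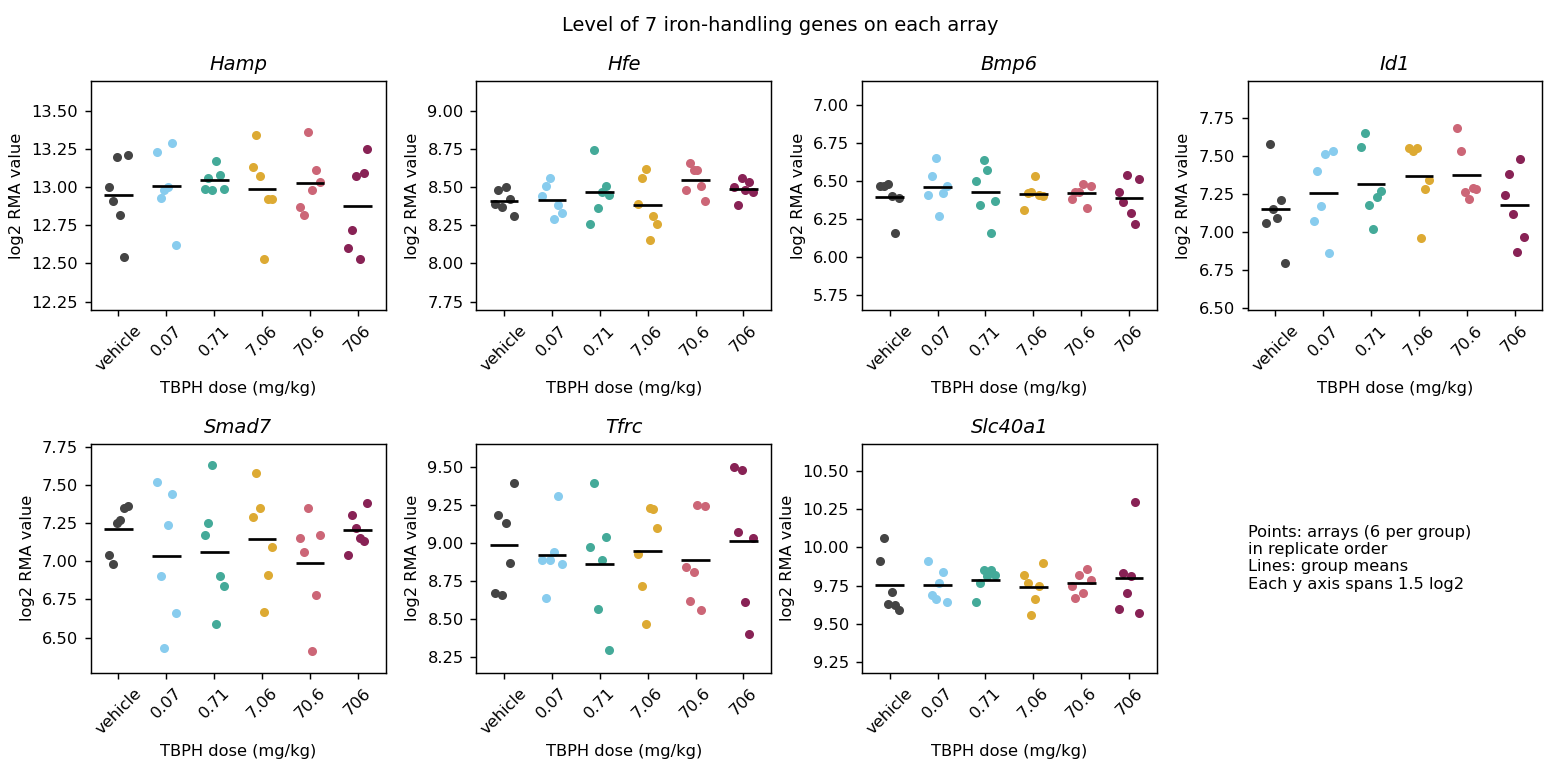
Level of 7 iron-handling genes on each array, as the log2 RMA value (vertical axis, 1.5 log2 units in every panel) against TBPH dose in mg/kg, with 1 point per array in replicate order and the mean of 6 arrays as a line. In every panel the dosed groups overlap the vehicle arrays, and Tfrc and Smad7 scatter more than Hfe and Bmp6.

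Bmp6, the ligand through which liver iron raises hepcidin, was at the 67.5th percentile with a mean of 6.42 log2. Vehicle arrays gave a lowest, median and highest value of 6.16, 6.43 and 6.48 log2, and the 706 mg/kg arrays 6.22, 6.39 and 6.54 log2. The medians of the other 4 dose groups ran from 6.42 to 6.44 log2, and the groups overlapped. On the probe set used, its difference at 706 mg/kg was -0.0011 log2 (95% interval -0.14 to 0.14). The separate 95% intervals of the doses reached from 0.904-fold to 1.16-fold there. On the Bmp6 probe sets not used they reached 0.795-fold at 0.07 mg/kg and 1.27-fold at 0.71 mg/kg. A further 3 probe sets carry the Bmp6 symbol with lower means of 5.01 to 5.45 log2, and their within-group correlations with the one used were 0.146, -0.0102 and 0.154. One of them was lower at 7.06 mg/kg by -0.16 log2 (95% interval -0.30 to -0.02, unadjusted p = 0.0257, limma adjusted p = 1.00), and it was the one member probe set of 15 below an unadjusted p of 0.05 at any dose.

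Hfe, the hemochromatosis protein that partners the transferrin receptors, was at the 87.8th percentile with a mean of 8.45 log2. Vehicle arrays ran from 8.31 log2 upward with a median of 8.40 log2, the 70.6 mg/kg arrays from 8.41 through 8.56 to 8.66 log2 and the 706 mg/kg arrays from 8.38 through 8.49 to 8.56 log2. At 70.6 mg/kg, 4 of 6 arrays lay above every vehicle array and the other 2 inside the vehicle range. This was the smallest unadjusted p among the 35 differences, at 0.14 log2 (95% interval -0.01 to 0.28, unadjusted p = 0.0653, limma adjusted p = 0.921). At 7.06 mg/kg the difference was -0.03 log2, with the 6 arrays spread from 8.15 to 8.62 log2.

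Id1, an inhibitor of helix-loop-helix factors that BMP signals induce, was at the 77.3rd percentile with a mean of 7.27 log2. The vehicle arrays had a lowest, median and highest value of 6.80, 7.12 and 7.58 log2. The 0.07 mg/kg arrays gave 6.86, 7.28 and 7.53 log2 and the 0.71 mg/kg arrays 7.02, 7.25 and 7.65 log2. The 7.06 mg/kg arrays gave 6.96, 7.44 and 7.55 log2. Every dose group had a mean above vehicle, and every dose group overlapped it. The 70.6 mg/kg arrays gave 7.22, 7.29 and 7.68 log2, and the 706 mg/kg arrays 6.87, 7.18 and 7.48 log2. The difference from vehicle was 0.23 log2 (95% interval -0.03 to 0.49) at 70.6 mg/kg and 0.03 log2 (-0.23 to 0.29) at 706 mg/kg, with a limma adjusted p from 0.921 to 1.00 over the doses. These 5 signs share 1 set of vehicle arrays. Of 11 immediate early genes, which respond within minutes to stress and handling, 10 were above vehicle at 70.6 mg/kg, with a median difference of 0.55 log2, where 54.8% of all genes were above. At 706 mg/kg 10 were above vehicle too, with a median of 0.15 log2. At 7.06 mg/kg, where Id1 was at 0.22 log2, 6 were, with a median of 0.07 log2. At 0.71 mg/kg, where Id1 was at 0.17 log2, 8 were, with a median of 0.26 log2. At 0.07 mg/kg, where Id1 was at 0.11 log2, 9 were, with a median of 0.16 log2. Of these 11 genes 6 had an unadjusted limma p under 0.05 at 70.6 mg/kg, where 5.24% of all probe sets did. At 706, 7.06, 0.71 and 0.07 mg/kg the counts were 1, 1, 1 and 0, and limma called 0 of the 11 at any dose. The part of the immediate early genes in the value of Id1 was not tested.

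Smad7, the inhibitory SMAD that damps BMP and TGF-beta signals, was at the 75.5th percentile with a mean of 7.11 log2. The vehicle arrays had a lowest, median and highest value of 6.98, 7.26 and 7.36 log2. The 0.07 mg/kg arrays gave 6.43, 7.07 and 7.52 log2 and the 0.71 mg/kg arrays 6.59, 7.04 and 7.63 log2. The 7.06 mg/kg arrays gave 6.67, 7.19 and 7.58 log2. Each of these 3 dose groups spread both below and above the vehicle range, and so overlapped it. The 70.6 mg/kg arrays gave 6.41, 7.11 and 7.35 log2, and the 706 mg/kg arrays 7.04, 7.18 and 7.38 log2. Every dose mean was below vehicle, by -0.22 log2 at 70.6 mg/kg (95% interval -0.57 to 0.12) and by -0.0056 log2 at 706 mg/kg (-0.35 to 0.34). The standard deviation was 0.44 log2 at 0.07 mg/kg and 0.12 log2 at 706 mg/kg. The direction depended on the probe set: a second one of Smad7 was 0.05 log2 above vehicle at 706 mg/kg and 0.01 at 7.06 mg/kg, and the remaining one 0.03 above at 0.07 mg/kg. All 3 were below vehicle at 70.6 and 0.71 mg/kg, and the same vehicle arrays stand behind every sign.

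Tfrc, which takes up transferrin-bound iron and whose transcript is stabilised when cells lack iron, was at the 90.8th percentile with a mean of 8.94 log2. Vehicle arrays ran from 8.66 to 9.39 log2 and the 706 mg/kg arrays from 8.40 through 9.05 to 9.50 log2. The 706 mg/kg arrays reached both below and above the vehicle range. The difference was 0.03 log2 (95% interval -0.33 to 0.39), and single arrays differed by up to 2.30-fold over the whole set. A second Tfrc probe set correlated with the one used at 0.905 within groups, which was the closest agreement of any member. That probe set was below vehicle at every dose, and at -0.05 log2 at 706 mg/kg, so the sign there depended on the probe set. Its 95% interval reached down to 0.638-fold at 0.07 mg/kg, which is past 1.5-fold.

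Slc40a1, the one known cellular iron exporter and the target of hepcidin, was at the 94.4th percentile with a mean of 9.77 log2. Vehicle arrays ran from 9.59 through a median of 9.67 to 10.06 log2 and the 706 mg/kg arrays from 9.57 through 9.75 to 10.30 log2. Of the 706 mg/kg arrays, 5 lay at or below 9.83 log2 and replicate 5 alone at 10.30 log2. On the probe set used, the group means spanned 1.04-fold, the narrowest range of the 7 genes. The difference at 706 mg/kg was 0.05 log2 (95% interval -0.13 to 0.23). The range and the sign depended on the probe set. The dimmer of the other Slc40a1 probe sets had group means from 7.21 log2 at 70.6 mg/kg to 7.51 log2 at 0.71 mg/kg. At 706 mg/kg it was 0.05 log2 above vehicle, while the brighter of them was at -0.07 log2 (95% interval -0.31 to 0.16).

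**Figure D2:**
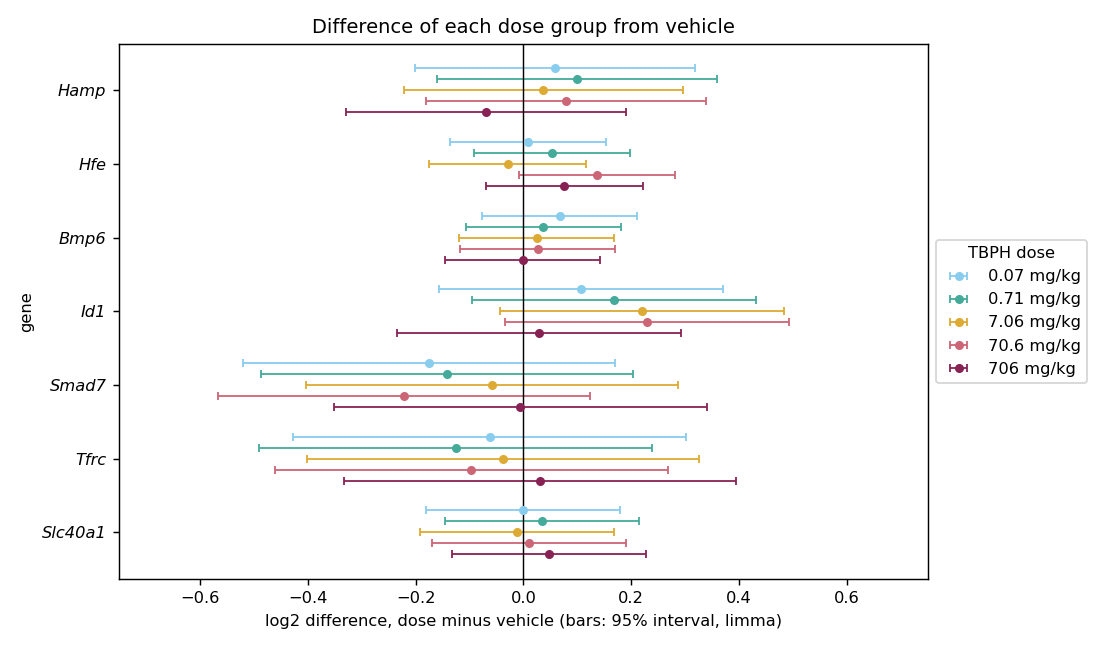
Difference of each dose group from vehicle for the 7 genes, as log2 dose minus vehicle on the horizontal axis with limma 95% intervals as bars, 6 arrays a group and 1 colour per dose. All 35 intervals cross 0, and the outermost points are Id1 at 0.23 and Smad7 at -0.22, both at 70.6 mg/kg.

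The wider iron pathway was described with 7 lists of 86 measured genes, 83 of them not members. No listed gene was called by limma at any dose, beside the background of 0%, and 10 gene and dose pairs from 8 genes had an unadjusted p under 0.05. That is 2.33% of 430 pairs pooled over the doses, beside 3.07% to 5.24% of all probe sets at single doses. The pooled share does not describe each dose. Blvra, Ireb2, Hjv, Id2, Id3 and Bambi each had such a p at 70.6 mg/kg, and no listed gene had one at 706 mg/kg. The share at each dose was not computed, and the genes named from these lists are given as values only. At 706 mg/kg the median log2 difference was 0.03 for 15 genes of iron uptake and transport, 0.01 for 16 of heme and hemoglobin handling and -0.02 for 8 of iron sensing and storage control. It was -0.02 for 18 genes that carry or regulate the BMP signal to hepcidin, -0.05 for 8 BMP and SMAD target genes, 0.02 for 11 of the IL6 and STAT3 arm and -0.0001 for 14 acute phase targets of STAT3. All genes had a median of 0.0059 in the same comparison. At 70.6 mg/kg 9 of 11 genes of the IL6 and STAT3 arm and 14 of 16 heme genes were above vehicle, with medians of 0.10 and 0.03 log2. Of all genes 54.8% were above vehicle there, with a median of 0.01 log2. The counts at 706, 7.06, 0.71 and 0.07 mg/kg were 7, 8, 7 and 4 of 11, and 10, 10, 10 and 9 of 16. The shares of all genes at those doses were 53.1%, 54.4%, 53.4% and 51.6%.

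Ireb2, which encodes iron regulatory protein 2 that stabilises the Tfrc transcript and blocks ferritin translation in iron-poor cells, had the smallest unadjusted p in these lists at 4 of the 5 doses. Vehicle arrays ran from 6.78 through a median of 7.04 to 7.28 log2, and the medians of the dose groups ran from 6.76 to 6.90 log2. The dose groups overlapped vehicle, with 3 of 6 arrays below every vehicle array at 706 mg/kg. The difference from vehicle was -0.23 log2 at 706 mg/kg, -0.32 at 70.6 mg/kg, -0.15 at 7.06 mg/kg, -0.29 at 0.71 mg/kg and -0.29 at 0.07 mg/kg, with unadjusted p of 0.0680, 0.0151, 0.240, 0.0247 and 0.0235 and a limma adjusted p from 0.921 to 1.00. The lowest Ireb2 value in the 70.6 mg/kg group, 5.98 log2 against 6.70 to 6.98 on the others, and the lowest in the 0.07 mg/kg group, 6.34 log2, were on the 2 arrays with the high GAPDH difference. Without those 2 arrays the difference was -0.17 log2 at 70.6 mg/kg (unadjusted p = 0.0758) and -0.21 log2 at 0.07 mg/kg (unadjusted p = 0.0274). The other doses kept their differences in that fit, with an unadjusted p of 0.0122 at 706 mg/kg and 0.00228 at 0.71 mg/kg, and the adjusted p was 0.980 or more at these 4 doses. These values share the vehicle arrays.

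Hjv, the BMP co-receptor hemojuvelin, was lower at 70.6 mg/kg with a mean of 10.07 ± 0.13 log2 against 10.33 ± 0.21 (SD, n = 6 each). Its difference was -0.26 log2 (95% interval -0.47 to -0.04, unadjusted p = 0.0193, limma adjusted p = 0.921), and it did not pass the test. In the same comparison 3 of the 8 BMP and SMAD targets had an unadjusted p under 0.05 with the same adjusted p, where 5.24% of all probe sets did, and at the other 4 doses 0 of the 8 did. They are named here after their values were seen. Id3 was 0.44 log2 above vehicle, Id2 -0.34 and Bambi, a decoy receptor of the pathway, -0.32. The target genes therefore did not share a direction. Without the 2 arrays of high GAPDH difference Id2 was at -0.22 log2 (unadjusted p = 0.162). Steap3, the ferrireductase of the transferrin cycle, was 0.19 log2 above vehicle at 7.06 mg/kg (unadjusted p = 0.0466) and Smad9, a SMAD of the BMP branch, was at -0.21 log2 at 0.07 mg/kg (unadjusted p = 0.0259, and 0.0666 without those 2 arrays), both with a limma adjusted p of 1.00. Blvra, which reduces the heme product biliverdin, was 0.11 log2 above vehicle at 706 mg/kg and 0.15 at 70.6 mg/kg (unadjusted p = 0.0217), and 0.11 at 70.6 mg/kg without the 2 arrays of high GAPDH difference, where its unadjusted p no longer lay under 0.05. Mon1a was at -0.10 log2 at 7.06 mg/kg. Lcn2, an acute phase siderophore binder, was at 0.50 log2 at 0.71 mg/kg (95% interval -0.09 to 1.09), and at 0.24 without vehicle replicate 2, the lowest vehicle array at 3.94 log2. None of these passed the test.

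With the dose groups so close, the members were next described by how they varied between arrays of 1 group. The pooled standard deviation within groups was 0.233 log2 for Hamp, which is larger than that of 95.4% of the 500 probe sets nearest to it in mean level, whose median was 0.0865 log2. Tfrc and Smad7 were similarly variable, with 0.332 and 0.315 log2, above 95.6% and 95.2% of probe sets of like mean. Id1 had 0.237 log2, above 88.4%. Slc40a1 had 0.156 log2, above 71.2%. By contrast Hfe had 0.121 log2, above 40.2%, and Bmp6 0.119 log2, above 19.0%. Hepcidin, both SMAD targets and the transferrin receptor thus differed between arrays of the same dose more than most genes of their level. The ligand and the sensor did not, on the probe sets used. The other Bmp6 probe sets had 0.1136, 0.1465 and 0.2172 log2, so the spread of Bmp6 depended on the probe set. The other Slc40a1 probe sets had 0.3088 and 0.2064 log2, so the spread of Slc40a1 did too. The standing of Slc40a1 among all probe sets fell from the 58.4th to the 23.5th percentile without replicate 5 of the 706 mg/kg group.

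Of the 3 pairs, Hamp and Smad7 passed the test over all arrays, but not under several other settings, and Hamp and Id1, and Id1 and Smad7, did not pass. Each array's deviation from its group mean was correlated over the 36 arrays, with 100000 permutations inside the groups and adjustment over the 3 pairs. Hamp and Smad7 gave Pearson's r = 0.414 (95% interval 0.0697 to 0.670, permutation p = 0.0094, adjusted p = 0.0283), with 23 of 36 arrays deviating the same way. Spearman's rho was 0.391 (permutation p = 0.0209, adjusted p = 0.0627). Without the 2 arrays farthest from the median of Hamp, replicate 4 of the 7.06 mg/kg group and replicate 6 of the 706 mg/kg group, r was 0.316 (permutation p = 0.0697), so the relation no longer passed. With the replicate number as a block r was 0.355 (adjusted p = 0.191), and with the other 2 Smad7 probe sets it was 0.181 and 0.351 (adjusted p = 0.706 and 0.0581). Leaving out single arrays gave r from 0.335 to 0.476 and kept the adjusted p under 0.05 in 30 of 36 cases. The call was lost without replicate 1 or 5 of the 0.07 mg/kg group, replicate 2 or 4 of the 7.06 mg/kg group, replicate 3 of the 70.6 mg/kg group or replicate 6 of the 706 mg/kg group.

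Hamp and Id1 gave r = -0.135 (95% interval -0.467 to 0.230, permutation p = 0.471, adjusted p = 0.624) and rho = -0.199 (permutation p = 0.281), with 14 of 36 arrays deviating the same way. Without the 2 farthest arrays r was -0.271 (permutation p = 0.171). Id1 and Smad7 gave r = 0.0926 (95% interval -0.271 to 0.433, permutation p = 0.624, adjusted p = 0.624) and rho = 0.0548 (permutation p = 0.769), with 21 of 36 arrays deviating the same way. Without its 2 farthest arrays r was 0.128 (permutation p = 0.528). The intervals of both pairs hold moderate relations in either direction, so these data do not show that the genes vary apart.

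**Figure D3:**
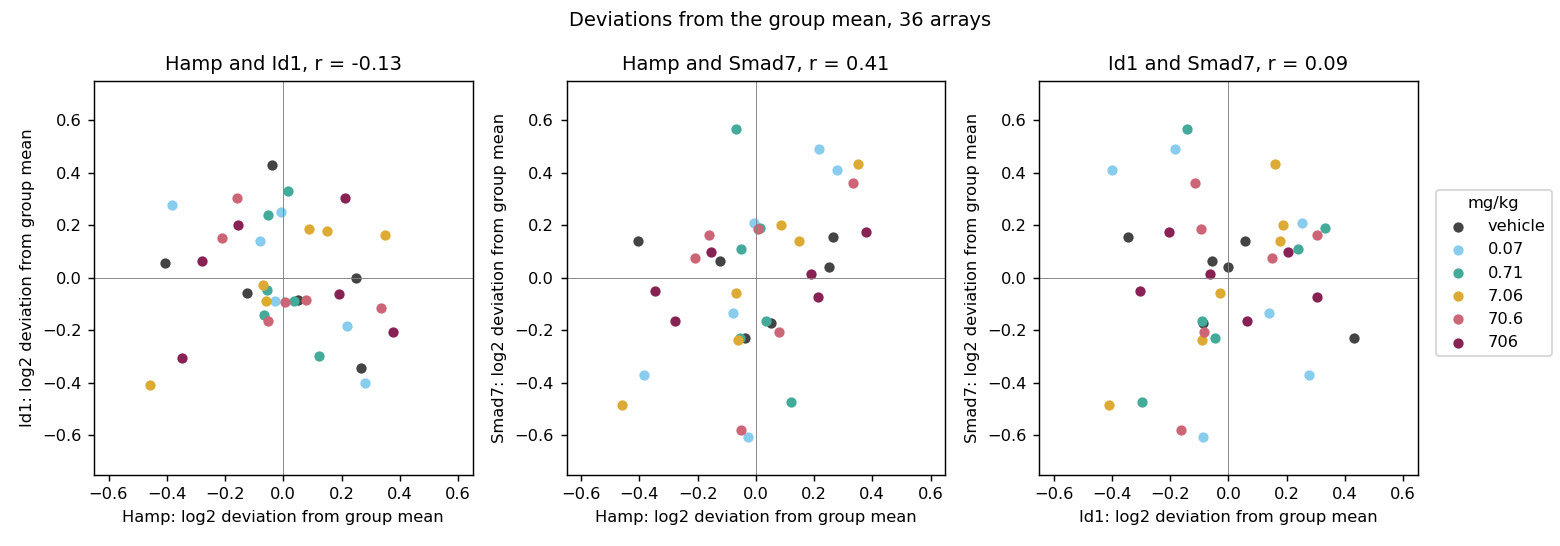
Deviations from the group mean in log2 units for Hamp, Id1 and Smad7, paired in 3 panels, with 1 point per array (36 in each panel) coloured by dose. The panel of Hamp and Smad7 tilts upward (r = 0.41), and the array lowest in Hamp in the 7.06 mg/kg group is low in all 3 genes.

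The pairs did not keep a direction from group to group. Adjusted over the 18 exact permutation tests inside groups, 0 passed (smallest adjusted p = 0.0621), and 4 had an unadjusted p under 0.05. Hamp and Smad7 gave a positive r in 4 of 6 groups, from -0.689 at 0.71 mg/kg (exact permutation p = 0.133) to 0.960 at 7.06 mg/kg (exact permutation p = 0.0069), with -0.0605 in vehicle, 0.747 at 0.07 mg/kg, 0.281 at 70.6 mg/kg and 0.551 at 706 mg/kg. Hamp and Id1 were positive in 2 of 6 groups, at 0.932 at 7.06 mg/kg (exact permutation p = 0.0167) and 0.0911 at 706 mg/kg, and gave -0.844 at 0.07 mg/kg (exact permutation p = 0.0319), -0.407 in vehicle, -0.400 at 0.71 mg/kg and -0.651 at 70.6 mg/kg. Id1 and Smad7 were positive in 3 of 6 groups, with 0.927 at 7.06 mg/kg (exact permutation p = 0.0069) and -0.652 in vehicle at the 2 ends. All 3 pairs had their highest r in the 7.06 mg/kg group, where replicate 4 was the lowest array of each, at 12.53 log2 for Hamp, 6.96 for Id1 and 6.67 for Smad7. With 6 arrays a group, whether the correlations differ between groups was not tested, and without the 7.06 mg/kg group Hamp and Smad7 gave r = 0.274 (adjusted p = 0.184).

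**Figure D4:**
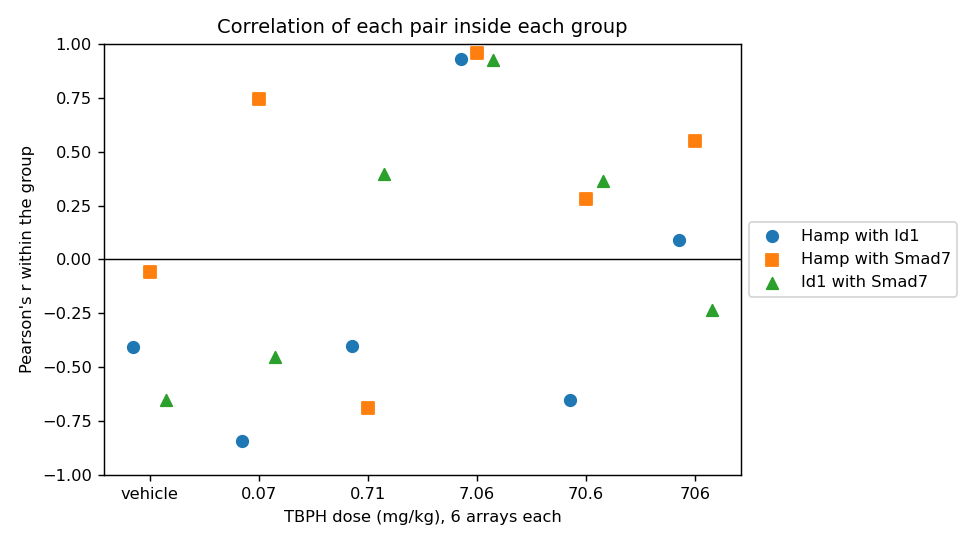
Pearson's r of each pair inside each group of 6 arrays, against TBPH dose in mg/kg, with 1 marker shape per pair. All 3 pairs are above 0.9 at 7.06 mg/kg, and in the other groups they fall on both sides of 0.

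Across the 21 pairs of members, on the probe sets used, 11 correlations were above 0 and 10 below, with a median of 0.0045. Of these, 1 pair, Hamp and Smad7, exceeded 0.3 in size. The lowest was -0.294 for Slc40a1 and Bmp6. Hamp gave 0.262 with Hfe, 0.210 with Slc40a1, 0.0910 with Bmp6 and -0.0334 with Tfrc. The values depended on the probe set. Bmp6 and Smad7 gave -0.176, but -0.475, 0.0352 and -0.052 with the other Bmp6 probe sets. Bmp6 and Id1 gave -0.243, but -0.369, -0.0985 and -0.0398 with those. Slc40a1 and Id1 gave 0.184, but -0.420 and 0.105 with the other Slc40a1 probe sets. These correlations share arrays and normalization and are given as descriptions.

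Set among 14216 other genes, Smad7 ranked 114th in likeness to Hamp, above 99.2% of them, and Hamp ranked 416th in likeness to Smad7. Hfe ranked 1159th for Hamp, Slc40a1 1986th, Bmp6 4913th, Tfrc 8604th and Id1 11274th. The central 95% of all genes' correlations with Hamp lay between -0.348 and 0.352. On the other Smad7 probe sets r with Hamp was 0.181 and 0.351, inside that range, so the rank of Smad7 holds for the probe set used. The genes most like Hamp over the 36 arrays were Zfr (r = 0.599), Pvalb (0.594), Creb3l4 (0.577), Rtn4rl1 (0.573) and Borcs7 (0.551), and the least like were Il17re (-0.721), Evc (-0.705) and Ptpru (-0.677). With Id1 the highest were Socs7 (0.754), Abraxas1 (0.697), Hapstr1 (0.681), Ano6 (0.680) and Fam114a2 (0.665), and the lowest was Tmem37 (-0.807). With Smad7 the highest were Zkscan3 (0.725), Lnx2 (0.704), G0s2 (0.702), Repin1 (0.688) and Lmo7 (0.677), and the lowest was Ankrd13b (-0.669).

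A fit of every probe set on each gene within groups gave few calls. limma called 0 of 31041 probe sets (0%) with Hamp, where 1393 had an unadjusted p under 0.05, and 0 (0%) with Smad7, where 2583 had one. It called 3 with Id1 (0.00966%), among them Tmem37, with a slope of -0.46 log2 per log2 of Id1 (adjusted p = 0.00692), and Socs7, with 0.48 (adjusted p = 0.0235); the third had no single symbol. The count with Id1 was 1 with the replicate block, 0 without vehicle replicate 2 and 20 without replicate 6 of the 0.07 mg/kg group. No member was called. The slope of Smad7 was 0.56 log2 per log2 of Hamp (95% interval 0.12 to 0.99, unadjusted p = 0.0134), which did not pass over all probe sets (limma adjusted p = 0.999). The pair that passed among 3 thus did not pass among all probe sets. Smad7 ranked 346th of the 31041 by p, and a missed threshold does not show that the pair equals the background.

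**Figure D5:**
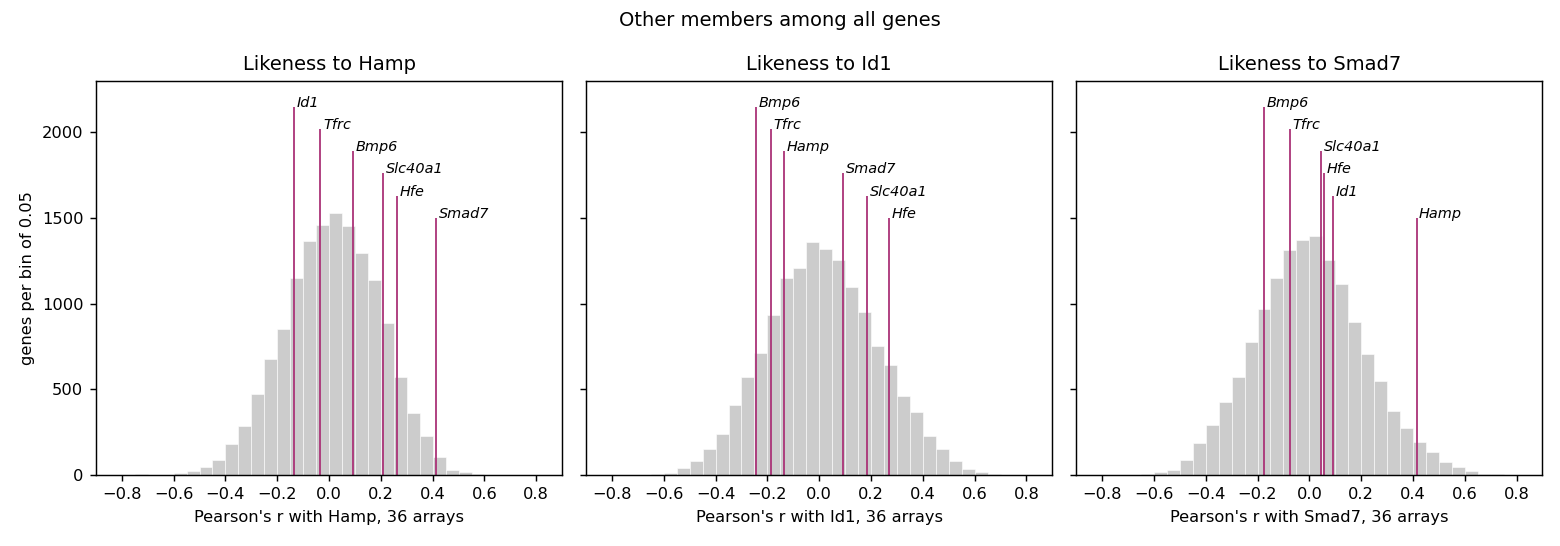
Number of genes per bin of 0.05 in Pearson's r with Hamp, Id1 and Smad7 over 36 arrays (14216 genes a panel), with the other members marked. In the panel of Hamp, Smad7 at 0.41 on the probe set used lies beyond the central 95% of genes, which ends at 0.352. Id1 at -0.13 lies inside it.

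The BMP target genes on the list were read beside the 3, which are on that list themselves. Each count of 7 and its median therefore includes pairs already tested above and is not further evidence on them. With Hamp, 5 of 7 targets had a positive r, with a median of 0.142, where all genes had 53.5% positive and a median of 0.0164. Besides Smad7 (0.414) and Id1 (-0.135), Id2 gave 0.40, Atoh8 0.20, Bambi 0.14, Id3 0.06 and Smad6 -0.05. With Smad7, 5 of 7 were positive with a median of 0.239, among them Hamp (0.414), Id2 (0.492) and Atoh8 (0.46). Smad6, the other inhibitory SMAD, gave -0.370. With Id1, 2 of 7 were positive with a median of -0.135, led by its close relative Id3 (0.484), while Bambi gave -0.479 and Atoh8 -0.41. The correlations of these target genes thus differed in sign. Whether the targets vary as 1 block between arrays was not tested.

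Some other gene groups were read beside Hamp, Id1 and Smad7, and their correlations are given as descriptions. With Id1, 10 of 11 immediate early genes had a positive r, with a median of 0.249 and Jun the highest at 0.492. With Smad7 2 of 11 did, with a median of -0.188 and Egr1 the lowest at -0.519, and with Hamp 1 of 11, with a median of -0.143. Of all genes 51.7% were positive with Id1 and 49.4% with Smad7. The IL6 and STAT3 arm was mixed in sign, with 4 of 11 genes positive with Smad7 and a median of -0.0643. Its values ran from Socs3, the feedback inhibitor of STAT3, at -0.612 to Cebpa at 0.467. With Hamp, 14 of 16 genes of heme and hemoglobin handling were positive (median 0.151), 12 of 14 acute phase targets of STAT3 (median 0.0668) and 0 of 8 stellate and fibroblast genes (median -0.179), where 53.5% of all genes were positive. The array mean of the immediate early genes ran from 6.40 to 7.35 log2 in vehicle and from 6.58 to 7.83 log2 over the dose groups, and its part in the relations of Hamp, Id1 and Smad7 was not tested. The GAPDH control difference gave r = 0.0985 with Hamp, 0.0343 with Smad7 and -0.0947 with Id1 over all arrays, and 0.103, 0.0801 and -0.291 without the 2 arrays where it was highest. Its largest correlation with a member was -0.362 with Hfe, and -0.381 without those 2 arrays, and its part in the values of Hfe and Id1 was not tested.

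Ferroportin was read beside the markers of macrophages, which recycle iron from red cells. All 8 Kupffer cell and macrophage genes had a positive r with Slc40a1 within groups, from 0.217 for Adgre1 to 0.552 for Cd163, the hemoglobin scavenger receptor, with a median of 0.354 where all genes had 0.0232. All 6 sinusoidal endothelial genes, all 7 erythroid genes, 7 of 8 stellate and fibroblast genes and all 3 cholangiocyte genes were also positive, with medians of 0.195, 0.246, 0.236 and 0.103, so the positive sign was shared by several other cell types. Without replicate 5 of the 706 mg/kg group, in which all 8 macrophage genes lay above their group means by 0.25 log2 on average, the 8 genes stayed positive with a median of 0.310. The other 2 Slc40a1 probe sets gave medians of 0.196, with 8 of 8 positive, and 0.0703, with 5 of 8 positive. Without that array these were 0.0835, with 6 of 8 positive, and 0.0371, with 5 of 8 positive, so the relation was weaker on both. The same markers were all negative with Bmp6, with a median of -0.314, but its other 3 probe sets gave medians of 0.0293, -0.0762 and 0.143. All 8 were negative with Tfrc, with a median of -0.179, and 3 of 8 were positive with Hamp, with a median of -0.0189. The part of macrophage content in the level of Slc40a1 was not tested.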

How the data were processed

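The deposited values are log2 signals, summarised by the authors for every probe set on each array. Per the submitters' processing notes RMA and affy were used (versions not named), and quantile steps such as those of RMA tie the arrays to a common distribution. No build is given in the sources used here. The 57 array control rows among 31099 were not used; of the other 31042 probe sets 20826 carried 1 symbol, 436 several and 9780 none. Arrays give no depth, and their number limits the precision.

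Each dose was compared with vehicle in limma 3.58.1 (R 4.3.3) fitted to the 36 arrays together as 6 group means (30 residual degrees of freedom), with two-sided tests and Benjamini-Hochberg adjustment over 31042 probe sets at 0.05. R/maanova, named in the study's design, was not used here. Correlations used deviations from group means and two-sided permutations within groups (scipy 1.17.1); within a group of 6 they were exact. Fits and correlations were tested on simulated data.

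The members and lists were chosen with earlier results of these data known. Non-member genes were named by a rule, the 2 with the smallest p per comparison over the lists and the 5 most and 3 least like genes; list extremes and genes under an unadjusted p of 0.05 were named after their values were seen. Alternatives covered the arrays in the fit, replicate block, moderation, weights, dim probe sets, scaling, probe set choice and leaving out arrays, groups or replicates; the fits without the 2 arrays of high GAPDH difference were added after seeing the data.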

Additional observations from a re-analysis of the deposited data

Results flagged for a closer look

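In 3 of the 42 sets of 1 gene in 1 group, a single array stood apart by Dixon's criterion for 6 arrays; chance alone flags about 1 in 20 such sets. Slc40a1 was highest on replicate 5 of the 706 mg/kg group, at 10.30 log2 against 9.83 on the nearest array, a gap of 0.645 of the range. Slc40a1 was lowest on replicate 1 of the 0.71 mg/kg group, at 9.64 log2 against 9.77, a gap of 0.641. Bmp6 was lowest on replicate 5 of the vehicle group, at 6.16 log2 against 6.39, a gap of 0.722. None of Hamp, Hfe, Tfrc, Id1 and Smad7 had such an array in any of the 6 groups.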

How the results depend on the processing

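The count of members called stayed at 0 for each dose, for any difference and for the slope under every alternative run, and so did the count over all probe sets. Of 1001 member differences recomputed under an alternative, 0 moved by more than the spread within groups and 0 reached an adjusted p of 0.05; the smallest adjusted p was 0.755. With the replicate block the pairs gave 0.355 for Hamp and Smad7 (adjusted p = 0.191) and -0.0933 for Id1 and Smad7, and the block changed no other call among members. No paired reading is drawn from it, since same-numbered arrays deviated together no more than others (mean r -0.0160 against 0.0034) and 4 of 36 arrays lay closest to their own number.

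For Hamp and Smad7 the call was lost with Spearman's rho (0.391), with group means not removed (0.325), without the 2 farthest arrays (0.316), and without the 0.07 (0.317), 7.06 (0.274) or 706 mg/kg group (0.437). It was lost with the other 2 Smad7 probe sets (0.181 and 0.351), which are dim at means of 4.15 and 4.69 log2. Inside single groups it was -0.0605 in vehicle, 0.747 at 0.07, -0.689 at 0.71, 0.281 at 70.6 and 0.551 at 706 mg/kg. Hamp and Id1 turned positive without the 0.07 mg/kg group (0.0335) and inside the 706 mg/kg group (0.0911), and passed with the opposite sign inside the 7.06 mg/kg group (0.932, exact permutation p adjusted over 3 pairs = 0.0167). Id1 and Smad7 turned negative without the 7.06 mg/kg group (-0.0796), inside vehicle (-0.652), 0.07 (-0.455) and 706 mg/kg (-0.236) and with the third Smad7 probe set (-0.411), and passed inside 7.06 mg/kg (0.927, exact permutation p adjusted over 3 pairs = 0.0104); over all 18 tests inside groups neither passed. Leaving out single arrays gave -0.314 to -0.0592 for Hamp and Id1, 0.335 to 0.476 for Hamp and Smad7 and -0.0153 to 0.199 for Id1 and Smad7.

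The count of probe sets called with Id1 was 1 with the replicate block, 27 with array weights, 7 without dim probe sets and 9 with the GAPDH difference as a covariate. With Smad7 it was 1 with array weights, 19 without dim probe sets, 16 with array medians subtracted, 2 with the GAPDH covariate and, chosen after seeing the data, 1 without the 2 arrays of high GAPDH difference. Leaving out single arrays gave 0 to 2 calls with Hamp, 0 to 20 with Id1 (0 without vehicle replicate 2, 20 without replicate 6 of 0.07 mg/kg) and 0 to 41 with Smad7 (41 without replicate 2 of 7.06 mg/kg). The percentile of spread ran from 87.9 to 91.8 for Hamp, 96.2 to 97.3 for Tfrc, 23.5 to 62.1 for Slc40a1, 14.4 to 27.4 for Hfe, 14.0 to 25.2 for Bmp6, 89.1 to 92.2 for Id1 and 95.5 to 96.9 for Smad7. The cause of these changes was not tested.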
